A study of Mus musculus with 7 samples.

Results

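The genes described here are Glul, Axin2, Lgr5, Tbx3, Tcf7l2, Cyp1a2, Oat, Rhbg, Slc1a2 and Rgn, 10 genes of the hepatocytes around the central vein or of the response to Wnt signals. The rule that picks their probes uses gene names and no measured value. The list of genes itself was chosen with earlier results of these data known. All probes that carry one of these names on a mouse whole-genome array were taken, 15 of 55681 non-control probes, and all 10 genes were among the 18665 genes that could be tested. RNA of whole liver from 7 untreated C57BL/6J mice, 4 weeks old, was hybridised with 1 dye and 1 array per animal, to compare livers with and without RBPJ, the DNA-binding partner of the Notch receptors. Every mouse carried the floxed Rbpj allele on both chromosomes. The 4 Rbpj+/+ mice (labelled Rbpj +/+_1155, then Rbpj +/+_1156, Rbpj +/+_1024 and lastly Rbpj +/+_991) were AlfpCre- and the 3 Rbpj-/- mice (Rbpj -/-_N3, then Rbpj -/-_N5 and Rbpj -/-_2866) were AlfpCre+, and values are listed in this order throughout. AlfpCre is a transgene that deletes the floxed gene in the embryonic liver, in the precursors of hepatocytes and cholangiocytes. In the paper, Rbpj-/- mice of this age were cholestatic by serum values and Rbpj+/+ mice were not. Deletion, Cre and cholestasis therefore cannot be told apart. The sex of the mice is not given in the labels.

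Hepatocytes divide their work along the axis between the portal tract and the central vein. Endothelial cells of the central vein release Wnt ligands and the Wnt amplifier R-spondin, which act on the hepatocytes next to them. There, β-catenin enters the nucleus, joins TCF factors and switches on the pericentral programme, which includes glutamine synthesis, the capture of ammonia that has escaped the urea cycle, and much of drug metabolism.

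The probe signal is given as log2 intensity minus the 75th percentile of its array, so that 0 is the 75th percentile. Different probes bind with different strength, and levels are therefore compared between animals and never between genes. Between 41.1% and 64.9% of the probes were well above background on an array, with the highest shares on the arrays of Rbpj +/+_1156 and Rbpj -/-_N3, whose dim probes were brighter. All arrays lay on 1 slide, the Rbpj+/+ arrays in row 1 and the Rbpj-/- arrays in row 2, so that slide row and genotype cannot be told apart. The brighter probe of Rbpj ranged from 0.29 to 0.97 in Rbpj+/+ and from -0.78 to -0.35 in Rbpj-/- liver (log2 fold change -1.13, limma adjusted p = 0.0115), and its dimmer probe fell by 1.63 with overlap (adjusted p = 0.0722). Whether they lie in the deleted part of the gene was not analysed here. Genotypes were compared with limma, and an adjusted p below 0.1 over all tested probes was taken as differential expression. P-values measure the spread between animals, and an exact two-sided permutation test of 4 against 3 animals cannot give less than p = 0.0571. Over all genes, 34.2% were differentially expressed, 19.6% lower and 14.7% higher in Rbpj-/- liver, with a median log2 fold change of -0.13. This split depends on the scaling, since 3109 genes were higher and 2835 lower after quantile normalization. In bulk liver, fewer cells of a type and less RNA per cell cannot be told apart.

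The probes are oligonucleotides of 60 bases designed on RefSeq transcripts. Those below are shown because they read 2 genes, Tcf7l2 and Slc1a2, for which several probes were tested. The 3 probes of Tcf7l2 were each designed on a different transcript, so that their base numbers are not positions along a single one. Of the 3 probes of Tcf7l2, the sequences of 2 are given. They lie, on mouse build mm9, at chr19:55994029-55994088 (plus strand, base 1724 of the transcript), chr19:55817272-55817331 (plus strand, base 727) and chr2:102617752-102617811 (plus strand, base 1615). No annotation of mm9 was used, and whether a probe lies in coding sequence or a UTR was not analysed here.
Tcf7l2, probe at base 1724: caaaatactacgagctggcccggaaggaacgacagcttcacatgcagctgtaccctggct
Tcf7l2, probe at base 727: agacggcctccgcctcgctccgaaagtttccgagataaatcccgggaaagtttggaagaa
Slc1a2, probe at base 1615: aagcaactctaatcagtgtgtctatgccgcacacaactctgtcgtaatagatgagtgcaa

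TCF factors bind DNA at a short motif, for which CTTTGAT was searched on both strands in the 250 bases before the RefSeq transcription starts (build GRCm38.p6). The RefSeq table held 7 windows of 6 of the genes, with 2 starts for Tcf7l2. The motif was present in 1 of these 7 windows, that of Slc1a2, and in 3.21% of all 32851 windows. The match lies on the reverse strand, with its first base 207 bases before the start. The window of Slc1a2 (chr2:102706188-102706437, plus strand) is shown with the match in capitals, beside those of Glul (chr1:153899679-153899928, plus strand) and Axin2 (chr11:108920099-108920348, plus strand), common readouts of hepatic Wnt activity, in which these letters are not found. A match is a description of the sequence and does not show binding, and no match in this window says nothing of enhancers further away.
Slc1a2, before the start: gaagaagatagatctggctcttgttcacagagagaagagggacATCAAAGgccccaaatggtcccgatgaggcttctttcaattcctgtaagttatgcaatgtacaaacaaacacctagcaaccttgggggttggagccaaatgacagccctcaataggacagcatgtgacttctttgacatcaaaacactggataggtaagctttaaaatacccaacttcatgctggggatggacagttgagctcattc
Glul, before the start: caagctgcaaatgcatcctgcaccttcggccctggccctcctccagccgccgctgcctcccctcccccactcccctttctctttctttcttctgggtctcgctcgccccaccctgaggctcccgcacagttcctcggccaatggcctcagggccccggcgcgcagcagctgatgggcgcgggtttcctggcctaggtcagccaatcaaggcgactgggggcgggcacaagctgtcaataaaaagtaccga
Axin2, before the start: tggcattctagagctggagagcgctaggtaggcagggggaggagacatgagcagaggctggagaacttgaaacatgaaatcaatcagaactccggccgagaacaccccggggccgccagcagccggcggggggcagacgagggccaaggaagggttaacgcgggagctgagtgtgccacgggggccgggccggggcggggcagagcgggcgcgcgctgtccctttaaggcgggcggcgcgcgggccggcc

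Of the 10 genes, 6 were lower in Rbpj-/- liver, namely Tbx3, Tcf7l2, Glul, Axin2, Cyp1a2 and Rgn, by 2.03- to 3.67-fold, and none was higher, where 19.6% of all genes were lower. Slc1a2 passed by only 1 of its 2 tested probes, and Lgr5, Oat and Rhbg did not pass. At an unadjusted p below 0.05, limma called 7 of the 10 genes lower and 0 higher. The share of all genes at this looser threshold was not counted. In all 20 alternative settings, 0 of the 10 genes were called higher. In the same 6 genes the genotypes did not overlap, with every Rbpj-/- animal below every Rbpj+/+ animal, an order found in 21.2% of all genes. The median log2 fold change of the 10 genes was -1.06. All 10 were well above background on all 7 arrays, so none entered the test through 1 genotype alone. Counted by probes, 9 of the 13 tested probes were lower and 0 higher, where 33.6% of all tested probes were differentially expressed and 19.2% were lower.

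**Figure D1:**
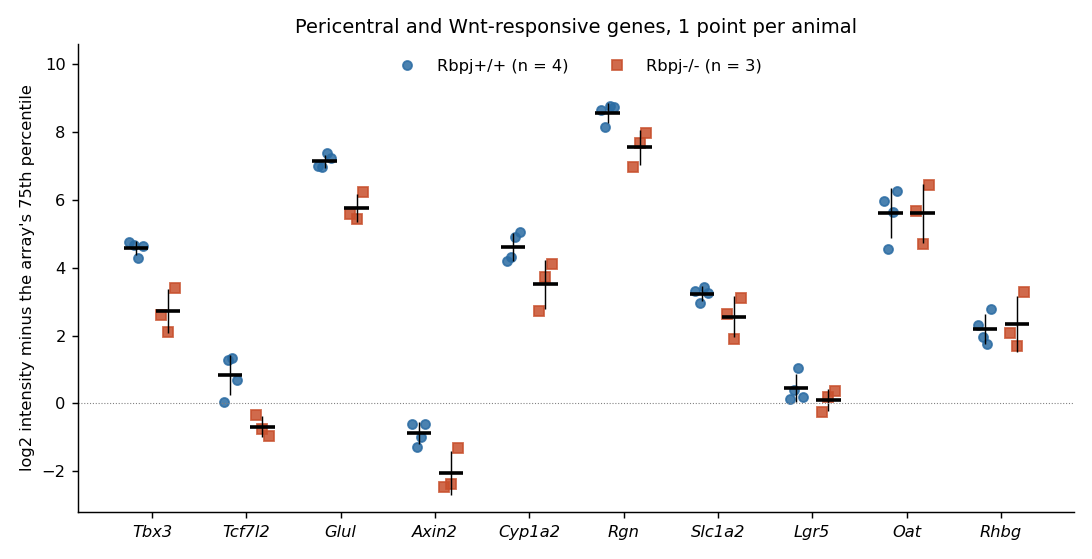
Signal of the 10 genes by animal, as log2 intensity minus the 75th percentile of the array (brightest tested probe of each gene, ordered by the genotype difference). Circles are the 4 Rbpj+/+ and squares the 3 Rbpj-/- animals, with the mean as a horizontal and the SD as a vertical line; the groups are apart for Tbx3, Tcf7l2, Glul, Axin2, Cyp1a2 and Rgn and overlap for Slc1a2, Lgr5, Oat and Rhbg.

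Among the genes of Wnt signalling itself, Tcf7l2 encodes the main TCF factor of hepatocytes. Its brightest probe, at base 1724, read 0.06, 1.28, 1.33 and 0.68 in Rbpj+/+ and -0.34, -0.76 and -0.96 in Rbpj-/- liver. The highest Rbpj-/- animal was close to the lowest Rbpj+/+ animal, but the groups were apart. The log2 fold change was -1.52 (SE 0.33, limma adjusted p = 0.0136), which is 2.87-fold lower. The probe at base 2644 fell by 1.87 on the log2 scale (adjusted p = 0.00430), and the one at base 727 fell by 0.89 (adjusted p = 0.0122), again without overlap. Thus all 3 probes, designed on different transcripts of the gene, were lower. Without scaling between arrays, base 727 gave -0.17 and did not pass (limma adjusted p = 0.687), whereas base 1724 (0.0848) and base 2644 (0.0104) passed. With no filter on dim probes, bases 727 and 1724 did not pass (limma adjusted p = 0.115 for each). The drop at base 727 was smaller than at base 2644 by 0.98 on the log2 scale within arrays, with an exact permutation p of 0.0571, the smallest possible, and 0.229 after adjustment over the 4 probe pairs examined. A difference between the probes was therefore not shown at this number of animals.

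Axin2, a scaffold of the complex that degrades β-catenin and a feedback target of the pathway, gave a dim signal. Its probe at base 4196 read -0.61, -1.28, -0.98 and -0.62 in Rbpj+/+ and -2.47, -2.37 and -1.30 in Rbpj-/- liver. Rbpj -/-_N3 and Rbpj -/-_N5 were clearly low, whereas Rbpj -/-_2866 lay just below the lowest Rbpj+/+ animal. The log2 fold change was -1.17 (SE 0.32, limma adjusted p = 0.0300), and without Rbpj -/-_N5 it was -1.01 and did not pass (adjusted p = 0.111). It did not pass after quantile normalization either (adjusted p = 0.169). The second probe, at base 1971, was well above background on 1 array of each genotype only and was not tested.

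Tbx3, a T-box transcription factor of pericentral hepatocytes, had the largest difference of the 10 genes. It read 4.76, 4.68, 4.28 and 4.65 in Rbpj+/+ and 2.62, 2.12 and 3.41 in Rbpj-/- liver. The Rbpj+/+ animals were close together and the Rbpj-/- animals spread over more than 1 log2 unit, all of them lower. Tbx3 was 3.67-fold lower (log2 fold change -1.88, SE 0.30, limma adjusted p = 0.00426), which ranked 261 of 18665 genes from the lowest fold change.

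Lgr5 encodes the R-spondin receptor that marks hepatocytes at the central vein. Its values of 0.14, 0.39, 1.05 and 0.19 in Rbpj+/+ overlapped with -0.27, 0.18 and 0.37 in Rbpj-/- liver. The log2 fold change was -0.35, with a 95% interval from -0.97 to 0.27 (limma adjusted p = 0.374). A drop of the size of that of Tbx3 lies outside this interval.

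**Figure D2:**
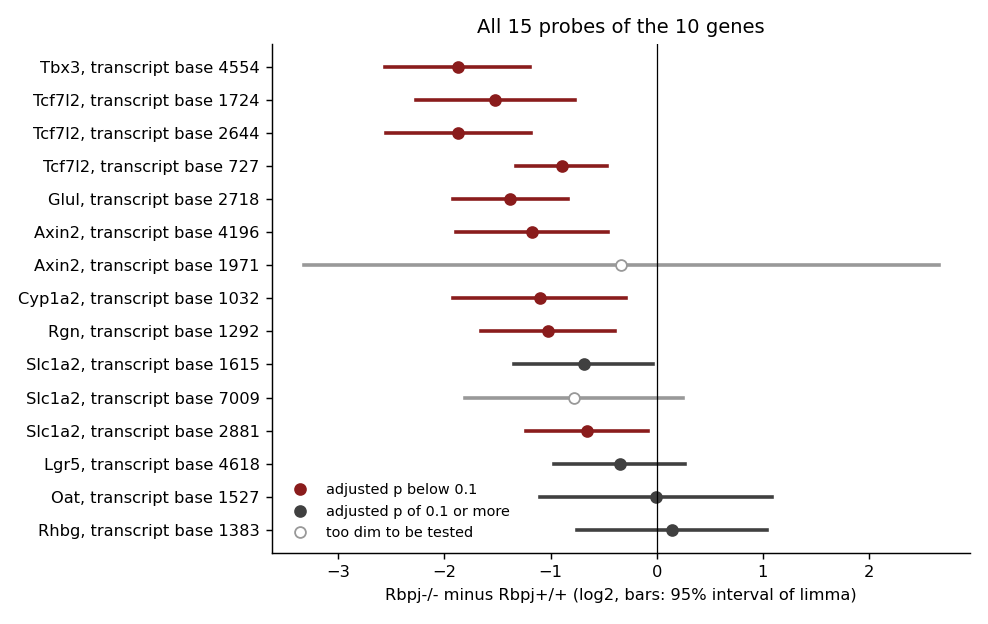
Difference between Rbpj-/- and Rbpj+/+ liver for all 15 probes (log2, with the 95% interval of limma), named by the first transcript base they cover. Red probes passed the threshold, dark grey probes did not, and the 2 open symbols are probes too dim to be tested; the 3 Tcf7l2 probes lie between -1.87 and -0.89, and the intervals of Lgr5, Oat and Rhbg include 0.

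Pericentral hepatocytes turn ammonia and glutamate into glutamine, and of the 4 genes around this step Glul passed the test by its brightest probe and Slc1a2, Oat and Rhbg did not. Glul, glutamine synthetase, is expressed only in the first rows of hepatocytes at the central vein. It read 7.01, 6.96, 7.37 and 7.24 in Rbpj+/+ and 5.60, 5.45 and 6.25 in Rbpj-/- liver. The groups were apart by more than the range of the Rbpj+/+ animals, with Rbpj -/-_2866 the least low. Glul was 2.61-fold lower (log2 fold change -1.38, SE 0.24, limma adjusted p = 0.00580).

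Slc1a2, the glutamate transporter that supplies this step, read 3.33, 2.95, 3.43 and 3.25 in Rbpj+/+ and 2.63, 1.91 and 3.11 in Rbpj-/- liver at base 1615. Rbpj -/-_2866 lay within the range of the Rbpj+/+ animals. At base 1615 the log2 fold change was -0.69 (SE 0.29, limma adjusted p = 0.114), and it passed without Rbpj +/+_1156 (-0.79, adjusted p = 0.0948) or without Rbpj -/-_2866 (-0.97, adjusted p = 0.0457). The probe at base 2881 gave nearly the same value of -0.66 without overlap (adjusted p = 0.0906), which did not pass without any one of Rbpj +/+_1156, Rbpj +/+_1024, Rbpj +/+_991, Rbpj -/-_N3 or Rbpj -/-_N5 (adjusted p from 0.136 to 0.301). The third probe, at base 7009, was too dim to be tested.

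Oat, ornithine aminotransferase, which makes glutamate from ornithine, read 5.98, 4.56, 5.64 and 6.25 in Rbpj+/+ and 5.67, 4.70 and 6.43 in Rbpj-/- liver. Both genotypes covered nearly the same range, and 1 animal of each (Rbpj +/+_1156 and Rbpj -/-_N5) was low. The log2 fold change was -0.0049, with a 95% interval from -1.10 to 1.09 (limma adjusted p = 0.995), an interval that includes a change of 2-fold in either direction.

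Rhbg, an ammonia transporter of the hepatocyte membrane, read 2.31, 1.96, 1.76 and 2.78 in Rbpj+/+ and 2.08, 1.69 and 3.28 in Rbpj-/- liver. Its Rbpj-/- animals held both the lowest and the highest value. This gave a log2 fold change of 0.15, with a 95% interval from -0.75 to 1.04 (limma adjusted p = 0.808). For Oat and Rhbg the sign of the difference turned when single animals were left out.

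Cyp1a2 and Rgn, from other functions of the pericentral zone, were lower. Cyp1a2, a cytochrome P450 that oxidises caffeine and aromatic amines, read 4.20, 4.32, 4.89 and 5.06 in Rbpj+/+ and 2.71, 3.73 and 4.10 in Rbpj-/- liver. The gap between the groups was smaller than the spread within either. The log2 fold change of -1.10 (SE 0.36, limma adjusted p = 0.0556) did not pass without Rbpj +/+_1024 (-1.01), Rbpj +/+_991 (-0.96), Rbpj -/-_N3 (-0.70) or Rbpj -/-_N5 (-1.21), with adjusted p between 0.105 and 0.160. Rgn, regucalcin, a calcium-binding enzyme of ascorbate synthesis, read 8.64, 8.14, 8.76 and 8.75 in Rbpj+/+ and 6.98, 7.69 and 7.98 in Rbpj-/- liver. All Rbpj-/- animals were lower, and Rgn was 2.03-fold lower (log2 fold change -1.02, SE 0.28, limma adjusted p = 0.0303). The calls rest in part on the filter for dim probes and on the scaling. Of the 10 genes, 2 (Glul and Tbx3) passed as lower when all probes were tested, where 670 of 35449 genes were lower. Without scaling between arrays 3 (Glul, Tbx3 and Tcf7l2) passed as lower, where 440 of 18665 genes were lower and 7683 higher.

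**Figure D3:**
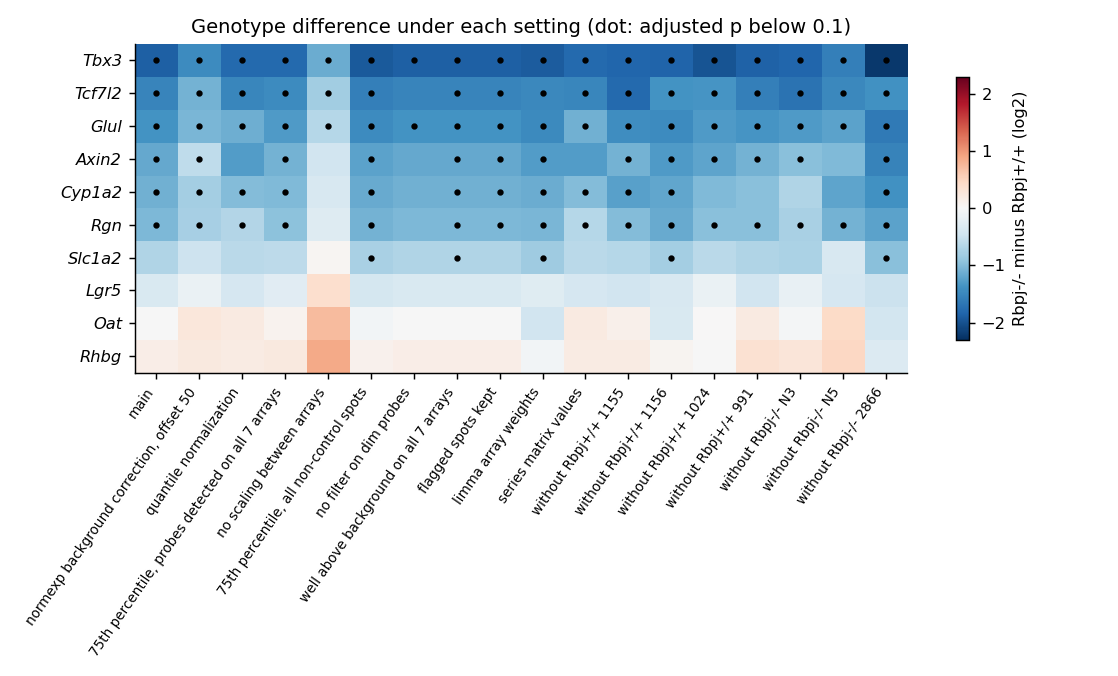
Difference between Rbpj-/- and Rbpj+/+ liver (log2, colour scale) of the 10 genes in the analysis described and under 17 alternative settings, with a dot where the adjusted p was below 0.1. Tbx3 and Glul passed in all settings shown, and without scaling between arrays Lgr5, Oat, Rhbg and Slc1a2 were above 0.

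The Rbpj-/- animals differed among themselves. Rbpj -/-_2866 had the highest signal of the 3 in 9 of the 10 genes, all but Tcf7l2, in which Rbpj -/-_N3 was highest. The mean of 13 hepatocyte genes without marked zonation (plasma proteins, apolipoproteins and hepatocyte transcription factors) was also highest in Rbpj -/-_2866, at 7.84, against 7.44 in Rbpj -/-_N3 and 7.61 in Rbpj -/-_N5.

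The same hepatocyte genes were lower in Rbpj-/- liver. Of the 13 tested, 11 were lower, 0 higher and 2 did not pass, where 19.6% of all genes were lower. Their median log2 fold change was -0.66. Examples are Cebpa (-1.01), a hepatocyte transcription factor whose genotypes overlapped, and the apolipoprotein genes Apob (-0.97), Apoc3 (-0.92) and Apoa1 (-0.83). However, another probe of Apob gave 0.34, and another probe of Apoc3 gave -0.14. At an unadjusted p below 0.05, where the share over all genes was not counted, limma called the same number, 11 lower and 0 higher. This count rests on the scaling and on single animals, since it was 3 after quantile normalization, 0 without scaling, 5 without Rbpj +/+_1024 or Rbpj -/-_N3 and 6 without Rbpj +/+_991 or Rbpj -/-_N5. Over all 18665 genes, 2835 were lower after quantile normalization and 440 without scaling. The mean of the 13 genes fell by 0.69 on the log2 scale, and each of the 10 genes was set against this mean within its own array, a comparison that was added after the values had been seen and has no test. Relative to these hepatocyte genes, Tbx3 fell by 1.19 and Glul fell by 0.69, both still without overlap between the genotypes. Tcf7l2 (-0.83), Axin2 (-0.49), Cyp1a2 (-0.41) and Rgn (-0.34) kept their sign but overlapped. The difference of Slc1a2 was 0.00074, and those of Lgr5 (0.34), Oat (0.68) and Rhbg (0.84) were above 0 with overlap.

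**Figure D4:**
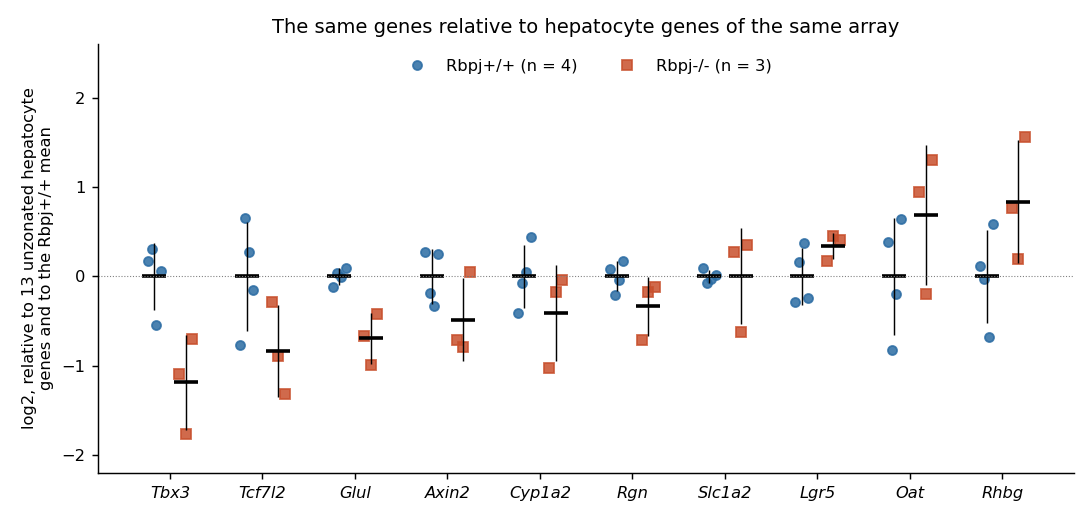
The 10 genes relative to the mean of 13 hepatocyte genes without marked zonation on the same array (log2, with the Rbpj+/+ mean of each gene set to 0). Circles are Rbpj+/+ and squares Rbpj-/- animals, with mean and SD; Tbx3 and Glul are the 2 genes whose genotypes stay apart.

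Other genes of the pericentral zone went in both directions. Of 22 tested, 6 were higher, 7 lower and 9 did not pass, with a median log2 fold change of -0.49, where 14.7% of all genes were higher and 19.6% lower. The lower genes with the largest differences were Pon1 (-1.73, adjusted p = 0.0135), a lactonase secreted with lipoproteins, Cyp2c29 (-1.56, adjusted p = 0.0223), a drug-metabolising P450, and Slco1b2 (-1.39, adjusted p = 0.00869), an uptake transporter for bile acids and drugs. Cyp2e1, the P450 of ethanol oxidation, ranged from 9.13 to 9.94 in Rbpj+/+ and from 8.07 to 8.58 in Rbpj-/- liver (-1.20, adjusted p = 0.0115). The largest difference of the list was upward. Cyp7a1, the rate-limiting enzyme of bile acid synthesis, ranged from 1.44 to 3.22 in Rbpj+/+ and from 3.29 to 5.22 in Rbpj-/- liver (2.02, adjusted p = 0.0265), and its groups were only just apart. Genotypes did not overlap in 12 of the 22 genes, 7 of them lower, where 36.6% of all genes did not overlap. Without scaling the split was 8 higher and 1 lower, where 7683 of 18665 genes were higher and 440 lower. The count of 13 fell to 8 without Rbpj -/-_N3 and to 7 without Rbpj -/-_N5.

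Target and feedback genes of Wnt signalling outside the 10 also split. Of 11 tested, 3 were higher, 2 lower and 6 did not pass, with a median log2 fold change of -0.19. The share of lower genes is about the 19.6% found over all genes, of which 14.7% were higher. Sp5, a transcription factor induced by β-catenin, fell by 1.62 on the log2 scale (adjusted p = 0.0141), and its ranges of 0.55 to 1.49 in Rbpj+/+ and -1.34 to 0.03 in Rbpj-/- liver were apart. Notum, a secreted enzyme that inactivates Wnt ligands, fell by 0.91 (adjusted p = 0.0368). Ccnd1, cyclin D1, rose by 1.75 (adjusted p = 0.00396) and Myc by 1.24 (adjusted p = 0.0860), and both are also induced in growing cells. The 9 tested genes of the proliferation list were all higher (2 of them entered the test through the Rbpj-/- arrays alone), with a summed signal between 13.8 and 26.5 times the 75th percentile in Rbpj+/+ and between 54.2 and 82.3 times in Rbpj-/- liver; their part in the rise of Ccnd1 and Myc was not tested. The log2 fold changes of the receptor-removing ligases Znrf3 (-0.59, adjusted p = 0.418) and Rnf43 (-0.34, adjusted p = 0.279) did not pass. Without Rbpj -/-_N5, 3 of the 11 genes passed in place of 5. Without scaling 4 were higher and 1 lower, where 7683 of 18665 genes were higher and 440 lower.

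Of 21 tested genes that encode Wnt signals, receptors and effectors, 1 was higher, 3 lower and 17 did not pass, with a median log2 fold change of -0.24. This is a smaller share than the 34.2% called over all genes. The direction of this list depends on the scaling. It had 0 higher and 4 lower genes after quantile normalization, 2 and 5 after normexp correction, and 7 and 0 without scaling. Over all 18665 genes, 3109 were higher and 2835 lower after quantile normalization, 3385 and 4325 after normexp correction, and 7683 and 440 without scaling. Wnt9b, one of the ligands of the central vein endothelium, ranged from -3.06 to -1.76 in Rbpj+/+, where 3 of 4 arrays were well above background, and from -1.14 to -0.83 in Rbpj-/- liver (log2 fold change 1.39, limma adjusted p = 0.0138). It thus entered the test through the Rbpj-/- arrays alone, and where all 7 arrays had to be well above background, 0 genes of the list were higher and 4 lower. Rspo3, the R-spondin of the central vein, ranged from 0.61 to 1.34 in Rbpj+/+ and from 0.94 to 1.05 in Rbpj-/- liver and did not pass (-0.0034, adjusted p = 0.993). The second ligand, Wnt2 (-0.55, adjusted p = 0.321), the receptor Lgr4 (-0.24, adjusted p = 0.672) and Ctnnb1, which encodes β-catenin (0.38, adjusted p = 0.340), did not pass either. The lower genes were Dvl3 (-1.26, adjusted p = 0.00286), a transducer below the receptor, Apc (-0.82, adjusted p = 0.0472), part of the β-catenin destruction complex, and Lrp6 (-0.75, adjusted p = 0.0266), the Wnt co-receptor. Without Rbpj +/+_1156, 7 genes of the list passed in place of 4.

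Genes of the opposite, periportal zone went in both directions too. Of 24 tested, 5 were higher, 5 lower and 14 did not pass, with a median log2 fold change of -0.02. These shares are near those of all genes, of which 14.7% were higher and 19.6% lower. Igfals, which binds insulin-like growth factors in serum, had the largest difference (-4.58, adjusted p = 0.000613), followed by Cyp2f2 (-1.47, adjusted p = 0.00986), a P450. Apoa4, an apolipoprotein (1.40, adjusted p = 0.0516), and Ctsc, a lysosomal protease (1.39, adjusted p = 0.0117), were higher, but the probes of Ctsc disagreed, down to -0.35. The split was 8 higher and 3 lower after quantile normalization, 11 and 5 after normexp correction, and 11 and 2 without scaling. Over all 18665 genes the split under these settings was 3109 and 2835, 3385 and 4325, and 7683 and 440. Without Rbpj +/+_1024, Rbpj +/+_991 or Rbpj -/-_N3, 6 genes passed in place of 10, and without Rbpj -/-_N5 5 did.

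**Figure D5:**
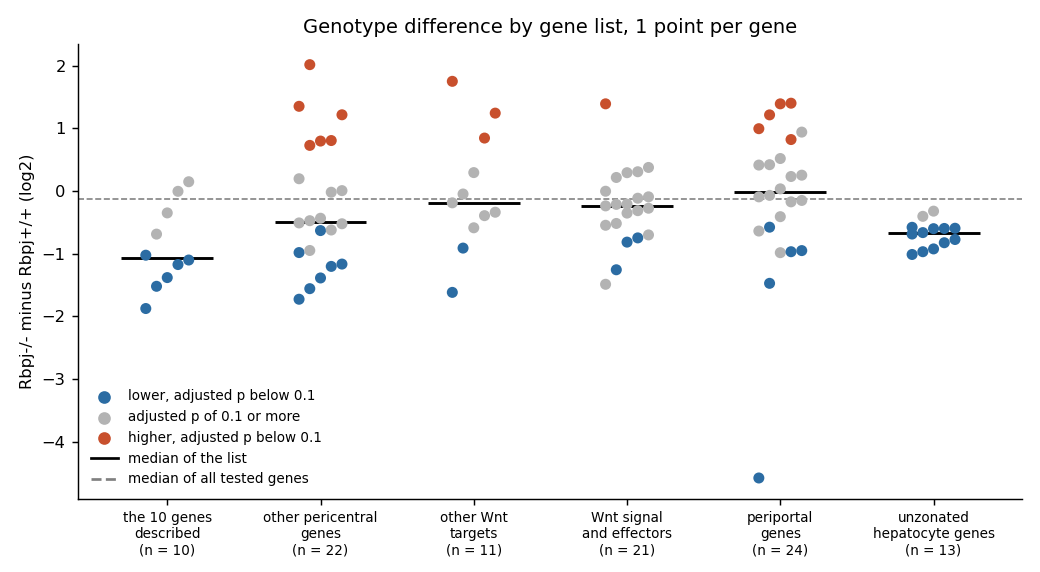
Difference between Rbpj-/- and Rbpj+/+ liver (log2) for each tested gene of 6 lists, 1 point per gene, with the median of each list as a black line and the median of all genes, -0.13, as a dashed line. Blue and orange genes passed the threshold. The 10 genes described have a median of -1.06, and none of them passed as higher.

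Markers of other liver cells moved as well, where 14.7% of all genes were higher and 19.6% lower. Endothelial genes, whose cells include the source of the Wnt ligands, were higher in 5 and lower in 1 of 10, with Vwf (1.96) the largest rise among those well above background on all 7 arrays, and Kdr, a receptor for VEGF, lower by its brightest probe (-1.19) but not by all its probes, which reached 0.01. Of the 5 higher genes, Tek (1.50) and Emcn (0.69) cleared the background limit in only 2 of the 4 Rbpj+/+ animals and entered the test through the Rbpj-/- arrays alone. Macrophage genes were higher in 7 of 8 and lower in 0, stellate and fibroblast genes higher in 6 of 7 and lower in 0, and cholangiocyte genes higher in 3 of 7 and lower in 0. Leukocyte genes were higher in 3 and lower in 4 of 8 (3 entered the test through the Rbpj+/+ arrays alone). Of 5 erythroid genes 1 was lower, about the 19.6% found over all genes. In multiples of the 75th percentile, the summed signal of the macrophage genes ranged from 112.9 to 146.5 in Rbpj+/+ and from 386.3 to 492.8 in Rbpj-/- liver, and that of the endothelial genes from 78.0 to 107.9 and from 121.9 to 180.8. Those of the stellate genes ranged from 34.7 to 55.5 and from 81.4 to 136.3, those of the cholangiocyte genes from 4.00 to 4.88 and from 6.83 to 13.3, and those of the leukocyte genes from 16.4 to 30.8 and from 37.1 to 72.4. In these 5 lists the summed signals of the genotypes did not overlap, whereas those of the erythroid genes did, at 228.8 to 519.0 and 100.5 to 432.3. Of the markers, Epcam, Des, Cd8a and Epb42 were among those too dim to be tested, and Ly6g was not analysed here. In the 13 hepatocyte genes without marked zonation it ranged from 5718 to 7883 in Rbpj+/+ and from 3784 to 4437 in Rbpj-/- liver. The part of cell composition in the lower pericentral genes was not tested.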

How the data were processed

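RNA of whole liver from 7 mice was measured on Agilent mouse 8x60K arrays with 1 dye. The authors deposited spot intensities from Feature Extraction 10.7.3.1, background-subtracted and detrended but not normalized between arrays. They also deposited log2 values centred per probe, which match quantile-normalized intensities, whereas the methods state a percentile shift. Here the intensities were used, without control spots and without spots that Feature Extraction had marked as outliers for uniformity or population (146 probe values). There was no saturation. Replicate spots were averaged as log2, and each array was shifted by its 75th percentile. A probe entered the test if every array of 1 genotype or the other showed it as positive, significant and well above background (24536 of 55681). The test was limma 3.58.1 (R 4.3.3), which stood in for the shrinkage t of the methods at their threshold of 0.1, with p-values adjusted by Benjamini-Hochberg over all tested probes. It was tested on simulated data with known changes. The simulation did not include the scaling of arrays or the filter on dim probes. The brightest tested probe stands for its gene. Exact permutation tests covered 35 assignments. Precision is limited by the number of arrays. The 10 genes and all lists were chosen with earlier results of these data known. Of each further list, up to 4 genes with the largest differences among those that passed were named, beside Rspo3, Wnt2, Wnt9b, Lgr4, Ctnnb1, Znrf3, Rnf43, Cyp2e1 and Rbpj. Alternatives were normexp correction (offset 50), quantile normalization, other probes behind the percentile, no and a stricter filter on signal, marked spots kept, the mean over probes, limma with a trend or with array weights, a threshold of 0.05, the deposited log2 values and each animal left out. The percentile over all spots and no scaling were added after the data had been seen. Probe coordinates are those of the array design (mm9), and names and promoters come from RefSeq (GRCm38.p6).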

Additional observations from a re-analysis of the deposited data

How the results depend on the processing

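Glul, Tbx3 and the Tcf7l2 probe at base 2644 passed in all of 19 alternatives, Glul with log2 fold changes from -1.62 to -0.65 and Tbx3 from -2.22 to -1.15. Across the 13 tested probes, 202 of 249 alternative values kept sign and side of the threshold. Of the 10 genes, 6 were differentially expressed, and 4 to 7 with 1 animal left out. With no filter on signal, 2 passed (Glul and Tbx3), where 1637 of all 35449 genes tested passed. Without scaling, 3 passed (Glul, Tbx3 and Tcf7l2), all lower, where 440 of 18665 genes were lower and 7683 higher. No scaling moves the median of all probes from -0.12 to 0.61. It turned Lgr5 to 0.38, Oat to 0.72 and Slc1a2 to 0.039 and 0.068 (bases 1615 and 2881). Oat was also above 0 with normexp correction (0.26), quantile normalization (0.20), the percentile over detected probes (0.076), the authors' log2 values (0.21) and without Rbpj +/+_1155 (0.12), Rbpj +/+_1024 (0.0045), Rbpj +/+_991 (0.21) or Rbpj -/-_N5 (0.45), with a range of -0.42 to 0.45 over animals left out. Rhbg was below 0 with array weights (-0.055) and without Rbpj +/+_1024 (-1.7e-05) or Rbpj -/-_2866 (-0.32), with a range of -0.32 to 0.48 over animals left out. With no filter on signal, 2 of the other pericentral genes, 1 Wnt target, 1 Wnt signal or effector gene, 2 periportal genes and 1 unzonated hepatocyte gene passed. The Wnt signal and effector count of 4 was 7 with normexp correction, the percentile over detected probes, array weights or no scaling, and 3 to 7 with 1 animal left out. The hepatocyte count of 11 was 7 with normexp correction, 3 with quantile normalization or the authors' values, 5 at a threshold of 0.05, 0 without scaling and 5 to 11 with 1 animal left out. The other pericentral count of 13 was 8 at the threshold of 0.05 and 7 to 15 with 1 animal left out, the periportal count of 10 was 16 with normexp correction, 5 at 0.05 and 5 to 11, and the Wnt target count of 5 was 3 to 5. Causes were not tested. Signals near background limit Axin2, whose second probe was too dim to be tested. No paired analysis was possible because the animal numbers are not shared between the genotypes.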
